A study of Mus musculus with 32 samples.

Results

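The DMSO time course consists of 6 of the series' 32 arrays, chosen by label: mouse E14TG2a embryonic stem cells (E14) kept in 1% dimethyl sulfoxide (DMSO) and sampled on days 2, 4 and 6. Each of these two-colour arrays set the treated cells against untreated E14 cells on a spotted array, and every day had 2 arrays, 1 with the treated sample in Cy3 and 1 with it in Cy5. The other 26 arrays hold E14 cells in 0.1 µM retinoic acid (RA) or 3 mM hexamethylene bisacetamide (HMBA) on the same days (6 arrays each) and, on another platform, E14 cells transfected with an empty vector or with RNAi constructs against Pou5f1 or Nanog (14 arrays). All arrays come from the same cell line. The labels do not say whether the arrays of a day hold separate cultures, or whether the untreated reference was harvested anew on each day.

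DMSO is a polar solvent that induces differentiation in several cultured cell types, among them embryonal carcinoma cells. Embryonic stem cells hold their undifferentiated state through the transcription factors Pou5f1 (Oct4), Nanog and Sox2, which keep genes such as Zfp42, Klf4 and Dppa5a active. When these cells leave that state they commonly pass through a stage like the epiblast of the early embryo, marked by Dnmt3b, Otx2 and Fgf5, before genes of the germ layers or of extraembryonic tissue come on.

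The values are log ratios of treated over untreated cells, taken as base 2, so that 0 means the level of untreated cells. Errors are standard errors (SE) from the fit, a day mean rests on n = 2 arrays, and a call is an adjusted p under 0.05 (limma, Benjamini-Hochberg over all 11117 probes with a value on all 6 arrays). These probes are 11117 of 21106 on the array. For genes said to have 5 values, a day mean with 1 array is that array's value adjusted by the dye term. The day 4 array with the treated sample in Cy5 gave a value for 53.3% of probes, the other 5 for 77.4% to 94.8%, and 15899 probes had a value on those 5. Dye orientation moved with the values: over the 11117 probes, arrays of the same day in opposite orientation correlated at 0.031 on day 2, 0.153 on day 4 and 0.690 on day 6, while arrays of the same orientation on different days correlated at 0.561 to 0.828. Dye was therefore a term of every fit. Where 2 values are given for a day, the treated sample in Cy3 comes first and in Cy5 second. A single value for a day is the mean unless the array is named, and it does not show how far the orientations differed.

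Over days 2 to 6, genes of the undifferentiated state such as Pou5f1, Dppa2 and Dnmt3l fell, and among the genes that rose were Peg3, the keratin Krt19, the collagen enzyme Loxl2 and the glucose transporter Slc2a3. The linear trend over day was called for 422 probes, 3.8% of those tested, with 200 rising (1.8%) and 222 falling (2%). In all 422 the difference between day 6 and day 2 had the same sign in both dye orientations. A called slope nearly requires this, so it is not separate support. The median share of the change from day 2 to day 6 that was present by day 4 was 61.6% among rising probes and 72.0% among falling probes. These calls rest on the 6 arrays together. Without the day 2 array with the treated sample in Cy5 none remained, and without the day 6 array in Cy3 the count was 3. Without the day 2 array in Cy3 it was 61, and without the day 4 array in Cy5 it was 1009. Day 6 minus day 2 alone was called for 963 probes (8.66%), 438 higher (3.94%) and 525 lower (4.72%) on day 6. An unadjusted p under 0.05 for the trend was reached by 2065 probes (18.6%). All 422 kept their sign and such a p in each of the fits without 1 array. With the 2 arrays of a day averaged first, as would be right if they held the same RNA, no probe was called and all 422 again had an unadjusted p under 0.05. With no dye term none was called, and 361 had such a p. The 422 were chosen from the same values, so these unadjusted p-values are not separate support.

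Against untreated cells, called were 10.5% of probes on day 2, 32.4% on day 4 and 34.3% on day 6. On day 2, 562 probes were higher (5.06%) and 604 lower (5.43%). On day 4 the counts were 1878 (16.9%) and 1724 (15.5%), and on day 6 they were 1831 (16.5%) and 1984 (17.8%). The step between days depended on the processing: with arrays scaled to one spread 2207, 2851 and 4355 probes were called on the 3 days, with quantile normalization 2224, 2778 and 4180, and without the day 4 Cy5 array 2249, 2333 and 5097. The day 2 count was 219 without the day 2 Cy3 array and 218 without the day 2 Cy5 array. A probe was put in a time class when it was called with a size of at least 1 on some day, or reversed its sign. Late probes (day 2 at most 0.5 of the size on day 6) were the most numerous (4.35% of probes), with 225 up (2.02%) and 259 down (2.33%). Steady probes (size of at least 1 on all 3 days, largest under 1.5 times the smallest) numbered 19 up (0.171%) and 69 down (0.621%), 0.792% in all. Early probes (day 6 at most 0.5 of day 2) numbered 15 up (0.135%) and 12 down (0.108%), 0.243% in all. Reversing probes (called with opposite signs on different days, at least 0.5 in size) numbered 46 (0.414%), of which 20 lay above (0.18%) and 26 below (0.234%) untreated cells on day 6. Day 4 probes (days 2 and 6 at most 0.5 of day 4) numbered 8 up (0.072%) and 3 down (0.027%), 0.0989% in all. The other 391 (3.52%) were graded, 197 up (1.77%) and 194 down (1.75%). In all, 9.42% of probes had a class. The classes were read from these values and are given as a description.

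**Figure D1:**
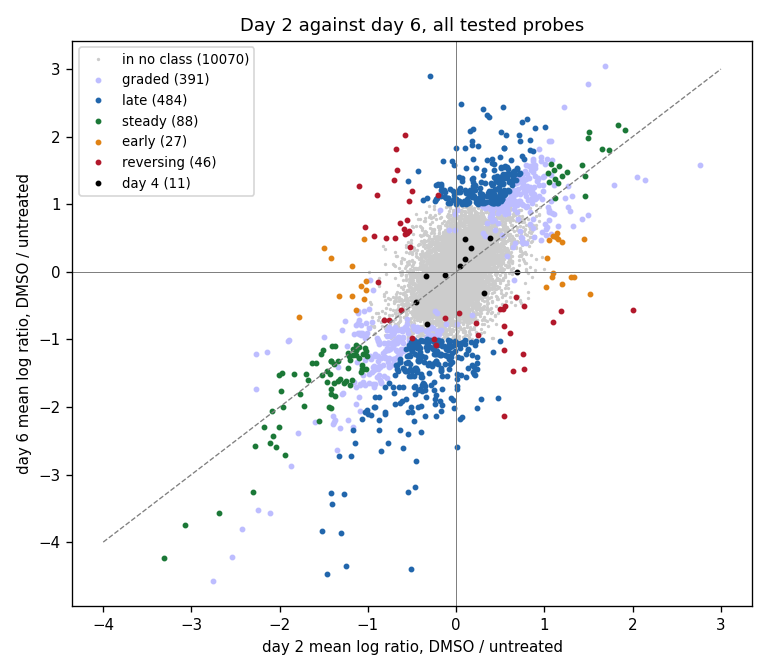
Mean log ratio of DMSO-treated over untreated cells on day 2 (horizontal axis) and day 6 (vertical axis) for the 11117 tested probes, 1 point a probe, coloured by time class; the dashed line marks equal values. Late probes (484) lie closer to 0 on day 2 than on day 6, steady probes (88) lie near the dashed line, and the steady probes on the lower side (69) outnumber those on the upper side (19).

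Pou5f1 itself stayed near its untreated level on day 2 and then fell. Its values were 0.15 and 0.33 on day 2, -0.82 and -0.51 on day 4, and -1.22 and -1.66 on day 6. Both arrays of each day were below both of the day before, and the slope was -0.42 ± 0.06 per day (adjusted p = 0.00429 by limma). Nanog, its partner in the same regulatory circuit, was already low on day 2, with -2.12 and -1.54, then -1.72 and -0.92 on day 4 and -1.67 and -1.34 on day 6. The days overlapped, the slope was 0.08 ± 0.06 per day and was not called (adjusted p = 0.531 by limma), and each day mean was below untreated cells. Sox2, which binds DNA together with Pou5f1, read -0.40 and -1.59 on day 2, -1.66 and -3.75 on day 4 and -1.44 and -2.77 on day 6. Its arrays of a day differed by over 1, the treated sample in Cy5 being lower each time, and its day 4 mean of -2.70 lay -1.15 ± 0.20 from the mean of the other days (adjusted p = 0.0291 by limma).

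Of 21 pluripotency genes with complete values, 17 were lower than untreated cells on day 2, 20 on day 4 and 20 on day 6, and none was higher on any day (background for lower probes 5.43%, 15.5% and 17.8%). The list median went from -1.22 on day 2 to -1.74 on day 4 and -2.17 on day 6, beside 0.03, 0.06 and 0.01 for all tested probes. The trend was called for 9 of the 21, all falling (background 2%). Without the day 2 Cy5 array the trend count was 0, while 13, 20 and 20 were lower on the 3 days. Klf2, a Krüppel-like factor of the naive state, was called on no day, with 0.06, 0.03 and -0.01. Dppa2, a chromatin protein of early embryos, had the steepest slope of the list at -0.77 ± 0.09 per day, from -0.85 and -1.65 on day 2 through a day 4 mean of -3.59 to -4.28 and -4.41 on day 6. Zfp42 (Rex1), a zinc finger protein of naive cells, read -2.11 and -3.40 on day 2, -3.79 and -4.93 on day 4, and -4.09 and -5.05 on day 6. Most of its loss was in place on day 2, and the slope was -0.45 ± 0.08 per day. Utf1 fell by 0.44 per day and Gdf3, a Nodal-like ligand, by 0.35 per day, both called. Among genes with a missing array, Nr0b1, an orphan nuclear receptor of embryonic stem cells, had 4 values. It read -3.30 and -3.87 on day 2, -4.84 on day 4 (Cy3 alone) and -5.87 on day 6 (Cy5 alone). Fgf4, the growth factor these cells secrete, had means of -1.35, -2.90 and -3.04 from 5 values, and Esrrb had -1.83, -2.09 and -2.01 from 5 values.

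**Figure D2:**
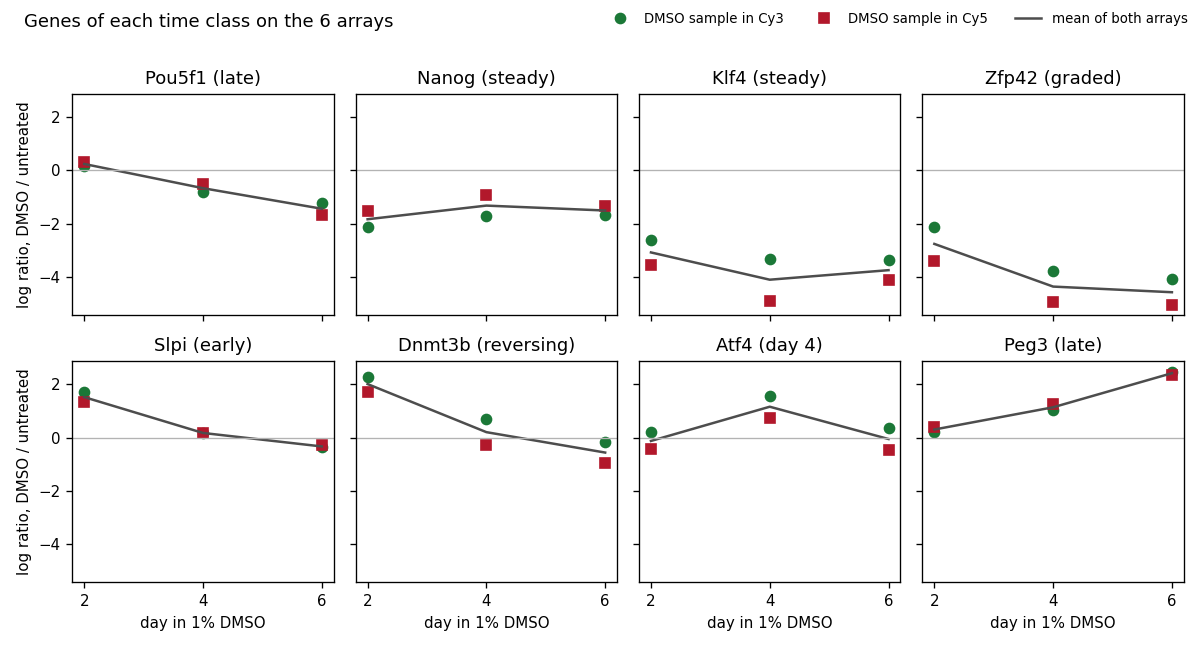
Log ratio of DMSO-treated over untreated cells (vertical axis) on days 2, 4 and 6 (horizontal axis) for 8 genes, with circles for the array with the treated sample in Cy3, squares for Cy5 and a line through the mean of both; the class stands in brackets. Pou5f1 falls from 0.24 to -1.44 while Nanog stays between -1.83 and -1.32, Dnmt3b crosses 0, and the mean of Atf4 is 1.16 on day 4.

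The steady class held genes with most of their change in place by day 2, and the losses named here still deepened by day 4. Klf4, a reprogramming factor downstream of LIF and STAT3, was at -2.61 and -3.55 on day 2, -3.32 and -4.88 on day 4, and -3.36 and -4.12 on day 6. Ooep, an oocyte-expressed protein, was at -3.23 and -3.40, then -4.30 and -4.37, then -4.08 and -4.40. Tet1, which oxidises methylated cytosine, varied least, with -2.32 and -2.24, -2.67 and -2.71, and -2.53 and -2.62. All 6 arrays of each of these genes were below -2. The homeobox gene Uncx (means of -2.30, -3.37 and -3.25) and Tdgf1, the Nodal co-receptor Cripto (-1.94, -2.68 and -2.72), were the others with the largest steady losses. Among the steady gains, Prickle1, a planar cell polarity protein, read 1.85 and 1.99, 1.09 and 1.90, and 1.93 and 2.28. Carbonic anhydrase Car2 had means of 1.83, 1.45 and 2.17, and Prom1 (CD133), a membrane protein of stem and progenitor cells, 1.42, 2.08 and 1.58. Fgfbp1, which releases FGFs from the matrix, had 1.66, 2.03 and 1.82, and Sh3bgrl had 1.51, 1.48 and 2.07.

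The graded class holds all other called probes of size 1 or more, and 16 of its 391 had a called trend. Dppa5a, an RNA-binding protein of pluripotent cells, had means of -2.54, -4.28 and -4.22, and Fbxo15, an F-box gene activated by Oct4 and Sox2, had -2.25, -3.36 and -3.53. Morc1 and Hormad1, both known for roles in meiosis or the male germ line, had means of -3.81 and -3.58 on day 6. Gbp2b, an interferon-inducible GTPase, had the highest day 6 mean of all classed genes at 3.04 ± 0.14, after 1.68 and 2.51. Carbonic anhydrase Car4 had means of 1.49, 2.44 and 2.77. Pim2, a survival kinase, went the other way, from 2.77 and 2.76 on day 2 to 1.89 and 1.66 on day 4 and 1.56 and 1.61 on day 6. Every array stayed above 1.5 and the slope was -0.29 ± 0.06 per day. Amotl2 and Ccn1, both target genes of the YAP pathway, had means of 2.76 and 2.45 on day 4.

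Late losses were led by Trh, the thyrotropin-releasing hormone precursor, a peptide hormone gene. It was at -0.70 and -0.32 on day 2, -5.01 and -4.41 on day 4, and -4.69 and -4.10 on day 6. The loss fell between day 2 and day 4, so that the day 4 value lay -2.26 ± 0.16 from the mean of the other days (adjusted p = 0.000281 by limma), and with day 2 left out its slope turned to 0.16. Dnmt3l, the catalytically inactive partner of the de novo DNA methyltransferases, read -1.72 and -0.89, -3.55 and -2.66, and -3.90 and -3.82. The testis cytochrome c gene Cyct had means of -1.52, -4.05 and -3.83 on the probe named here, and -0.87, -1.87 and -1.59 on its other probe. Psma8, a testis proteasome subunit, had -1.40, -2.89 and -3.44. Rex2 (-0.47, -2.60 and -3.18), the neurofilament gene Nefh (-0.55, -2.93 and -3.25) and Socs2, an inhibitor of cytokine signalling (0.47, -1.38 and -1.87), were among the 10 steepest falls. So were Mt1, a metallothionein (0.23, -1.38 and -2.02), and Slc27a2, a fatty acid transporter (0.04, -0.61 and -2.18).

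The late gains differed in when they appeared. Sprr2b, a small proline-rich protein of cornified epithelia, was at -0.23 and 0.34 on day 2, -0.04 and 0.43 on day 4, and 2.17 and 2.78 on day 6. Its relative Sprr2e was at 0.01 and 0.68, 0.04 and 1.02, and 2.19 and 2.45. Probes of these related genes can take up each other's RNA, so they are not separate evidence. Defa31, an alpha-defensin, read -0.66 and 0.06, -0.27 and 1.01, and 2.77 and 3.03. In these 3 genes both day 6 arrays were above all 4 earlier ones. Peg3, a paternally expressed zinc finger gene, rose more evenly, from 0.22 and 0.39 through 1.02 and 1.25 to 2.48 and 2.35, a slope of 0.53 ± 0.05 per day (adjusted p = 0.00272 by limma). Krt19, a keratin of simple epithelia, rose from -0.40 and -0.47 through 0.63 and 0.50 to 1.51 and 1.48. Lats2, a kinase of the Hippo pathway, reached 2.20 and 1.53 on day 4 and 2.60 and 2.27 on day 6.

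Early gains had at most 0.5 of their day 2 value left on day 6. Slpi, a secreted protease inhibitor, was at 1.70 and 1.34 on day 2, 0.18 and 0.16 on day 4, and -0.37 and -0.29 on day 6, and its slope of -0.46 ± 0.06 per day was called (adjusted p = 0.00429 by limma). Rian, a maternally expressed noncoding RNA of the imprinted Dlk1-Dio3 region, was at 1.29 and 1.60, 1.37 and 1.53, and 0.51 and 0.46. Both day 6 arrays were below the 4 earlier ones, the day 6 mean of 0.48 was still called higher, and the slope was not called (adjusted p = 0.0699 by limma). Mirg, from the same region, had means of 1.33, 0.45 and -0.08, and its day 2 call was lost without the day 2 Cy3 array (0.99). Meg3, also of that region but not in the class, had means of 1.15, 0.73 and 0.67, with the treated sample in Cy5 higher than in Cy3 on each day. Embigin (Emb) had means of 1.30, 0.42 and -0.07, and the gap junction gene Gja1 (connexin 43) 1.20, 0.12 and -0.18.

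Early losses were led by S100a6, a calcium-binding protein, at -1.63 and -1.37 on day 2, -0.16 and 0.00 on day 4, and 0.54 and 0.16 on day 6. Bnip3, a hypoxia-induced mitophagy receptor, went from -1.02 and -1.81 through -0.45 and -1.33 to 0.57 and -0.16. The slope of both was called, at 0.46 ± 0.07 and 0.41 ± 0.05 per day. Stmn2, a microtubule regulator of neurons, had means of -1.18, 0.33 and 0.09. Fxyd6 (-1.18 on day 2) and Nme7 (-1.13) were early as well, Nme7 being still lower on day 6 (-0.56). Fxyd6 lost its day 2 call without the day 2 Cy5 array (-1.01) and Nme7 without the day 2 Cy3 array (-1.02).

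Some genes crossed the untreated level to end low, such as Dnmt3b, and others to end high, such as Slc2a3. Dnmt3b, the de novo methyltransferase of the epiblast, was at 2.29 and 1.72 on day 2, 0.68 and -0.28 on day 4, and -0.18 and -0.95 on day 6. Both day 2 arrays were above the other 4, and the slope was -0.64 ± 0.07 per day (adjusted p = 0.00272 by limma). Foxd3, a forkhead factor of pluripotent cells and neural crest, went from 0.53 and 0.98 to -1.36 and -0.94 and then -0.97 and -1.46. Haem oxygenase Hmox1 went from 0.47 and 1.08 through -1.07 and -0.31 to -1.45 and -1.43, and Rasgrp2, a Rap exchange factor, had means of 0.64, -1.10 and -1.46. In the other direction Slc2a3, the glucose transporter GLUT3, went from -1.28 and -0.92 through 0.06 and 0.94 to 1.34 and 1.22. Loxl2, a lysyl oxidase that acts on collagen, went from -0.76 and -0.59 through 0.51 and 0.51 to 1.56 and 1.45, P4ha1, a collagen prolyl hydroxylase subunit, from a mean of -0.70 to 1.36, and annexin Anxa2 from -0.89 to 1.13. Id2, an inhibitor of helix-loop-helix factors, read -0.13 and -1.24, 0.52 and -1.19, and 2.48 and 1.16. Its arrays of a day lay over 1 apart, and on day 6 both were positive. The class depended on the day 2 arrays: 17 or 18 of its 46 probes stayed in it when either of them was left out.

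Of 13 epiblast genes with complete values, 7 were higher than untreated cells on day 2 and none lower (background 5.06% and 5.43%), with a median of 0.55. On day 6, 3 were higher and 6 lower (background 16.5% and 17.8%), with a median of -0.34. A falling trend was called for 6 (background 2%) and a rising one for none (background 1.8%). Without the day 2 Cy5 array the day 2 count was 3 and the trend count 0. Otx2, a homeobox factor of the epiblast, read 0.19 and 0.21, -0.61 and -0.17, and -1.32 and -1.50, and the zinc finger genes Zic2 (0.90, 0.67 and 0.03) and Zic5 (0.55, 0.18 and -0.34) fell too. Etv5, an ETS factor downstream of FGF, fell on the listed probe (-0.23, -1.53 and -1.82), and its other probe read -0.07, -0.50 and -0.60. Sall2 (1.26, 0.93 and 1.27) and Sox11 (1.00, 0.63 and 1.59) had means higher than untreated cells on each day. For Sox11 the orientations took opposite signs on day 4, the treated sample in Cy5 being below untreated cells. Fgf5, the growth factor that marks the epiblast, had 4 values. It read 2.35 and 1.84 on day 2, and with the treated sample in Cy3 alone 1.92 on day 4 and 1.40 on day 6.

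**Figure D3:**
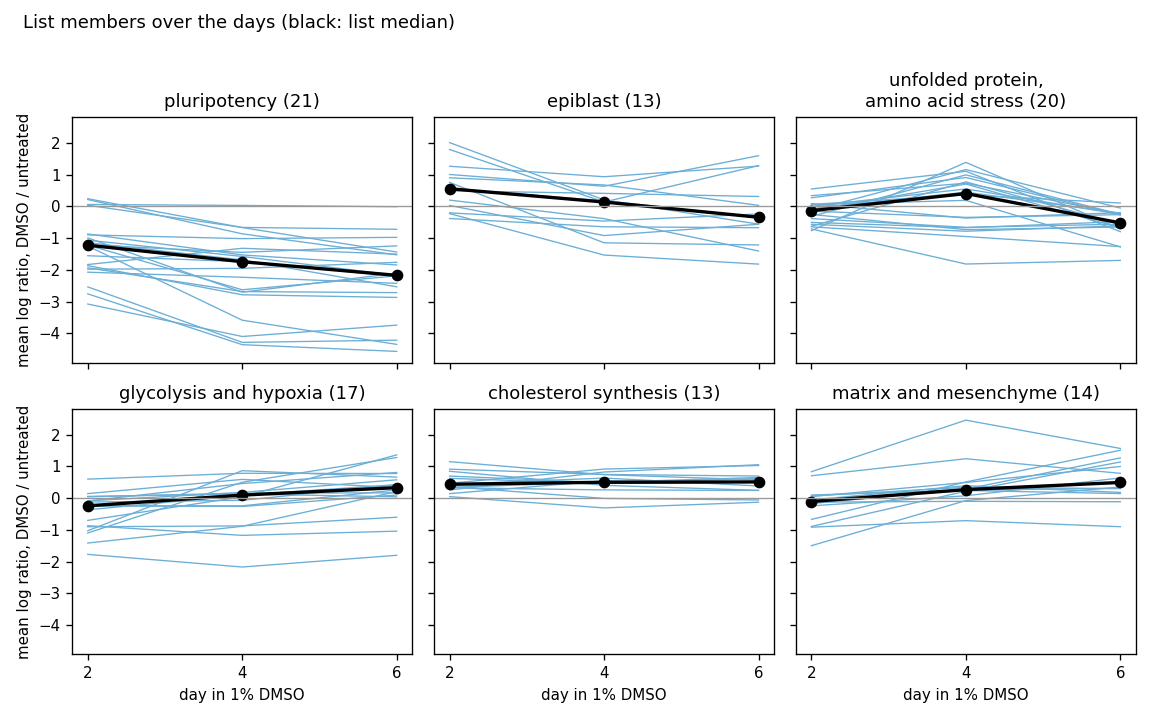
Mean log ratio of DMSO-treated over untreated cells (vertical axis) on days 2, 4 and 6 (horizontal axis) for the members of 6 gene lists, 1 thin line a gene with complete values and a black line for the list median; the number of genes stands in brackets. The pluripotency median falls from -1.22 to -2.17, the epiblast median crosses 0, and the median of the stress list is 0.40 on day 4 and below 0 on days 2 and 6.

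Day 4 departed from the mean of days 2 and 6 for 98 probes (0.882%), 64 above it (0.576%) and 34 below (0.306%). A departure does not need a return on day 6: 9 late gains and 35 late losses are among the 98, and 9 of the 11 day 4 probes. The count was 58 without the day 2 Cy3 array, 868 without the day 4 Cy3 array, 291 without the day 4 Cy5 array, 557 without the day 6 Cy3 array, 316 without the day 6 Cy5 array and 0 without the dye term. The list for the unfolded protein response and amino acid stress held 7 of its 20 tested members among those above and none below, with a median departure of 0.63 beside 0.03 for all probes. The counts above and below were 8 and 1 without the day 4 Cy5 array. On day 4, 10 members were higher than untreated cells and 6 lower, and without that array 6 and 6. On day 6, 0 were higher and 11 lower. Among all probes, 16.9% were higher and 15.5% lower on day 4, and 16.5% and 17.8% on day 6. The transcription factor Atf4, the centre of the amino acid response, was at 0.19 and -0.45 on day 2, 1.58 and 0.74 on day 4, and 0.36 and -0.47 on day 6. Its departure was 1.25 ± 0.16 (adjusted p = 0.00648 by limma), and within each orientation day 4 was the highest. Trib3, a pseudokinase induced by Atf4, read -1.11 and -0.42, 0.62 and 2.15, and -1.03 and -0.39, a departure of 2.12 ± 0.21 (adjusted p = 0.00194 by limma). Ddit3 (CHOP), a C/EBP-family factor of the stress response, read -0.58 and -0.67, 0.79 and 0.76, and -0.44 and -0.70. Asns, asparagine synthetase, read -0.29 and 0.04, 0.40 and 1.00, and -0.50 and -0.85. In Trib3, Ddit3 and Asns both day 4 arrays were above the other 4. Atf5 (1.23), Herpud1 (1.27) and Psat1 (0.80) were the other list members with a called departure above.

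Outside that list, the same course was seen for Mthfd2, the mitochondrial folate enzyme (departure 1.55 ± 0.16), Cth, which makes cysteine (1.60 ± 0.17), Jdp2, a bZIP factor (1.77 ± 0.16), and Aldh18a1, of proline synthesis (1.03 on the departure scale and a day 4 mean of 1.29). Mthfd2 read -0.20 and -0.79, 1.12 and 0.51, and -0.62 and -1.34. Cth stayed below untreated cells throughout, with means of -1.79, -0.49 and -2.39, whereas Jdp2 was still at 1.06 and 1.52 on day 6. Chac1, another target of the response, had 4 values. It read -1.11 and -0.07 on day 2, and with the treated sample in Cy3 alone 2.33 on day 4 and -0.15 on day 6.

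Other members of the list, named after their values were seen, had no called departure. Hspa5 (BiP), the main chaperone of the endoplasmic reticulum, read -0.45 and 0.57, -0.29 and 1.01, and -0.23 and 0.44. The orientations took opposite signs on each day, and no day was called. Hsp90b1, another chaperone, read 0.19 and -1.20, 0.12 and -1.46, and -0.01 and -0.95, with means called lower on days 4 and 6 (-0.67 and -0.48) although the orientations took opposite signs on day 4. Creld2 was lower on all 3 days (-0.65, -0.95 and -1.27), as was Xbp1, a transcription factor of the unfolded protein response (-0.71, -1.82 and -1.70). Promoters of 6 members, chosen after these values were seen, are shown to compare the known elements they hold. Each is the 250 bases before the RefSeq transcription start (GRCm38.p6), 5′ to 3′ on the gene's strand, with the matched letters in capitals. Both strands were searched for TGATGNAA, the core of the C/EBP-ATF element bound by Atf4 and CHOP, and for the endoplasmic reticulum stress element, CCAAT and CCACG with any 9 bases between. The first 3 hold the C/EBP-ATF letters and the next 3 the stress element:
Asns (chr6:7693210-7693459, minus strand): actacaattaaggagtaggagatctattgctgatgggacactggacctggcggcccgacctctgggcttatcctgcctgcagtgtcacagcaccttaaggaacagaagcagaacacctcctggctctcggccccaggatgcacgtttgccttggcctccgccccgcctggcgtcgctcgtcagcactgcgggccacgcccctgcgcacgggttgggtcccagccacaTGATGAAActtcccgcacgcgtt
Atf3 (chr1:191183334-191183583, minus strand): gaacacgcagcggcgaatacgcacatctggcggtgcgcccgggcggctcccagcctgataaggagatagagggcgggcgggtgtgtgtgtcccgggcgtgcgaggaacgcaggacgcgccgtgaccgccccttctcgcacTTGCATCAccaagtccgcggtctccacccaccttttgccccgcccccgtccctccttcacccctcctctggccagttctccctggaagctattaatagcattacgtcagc
Herpud1 (chr8:94386179-94386428, plus strand): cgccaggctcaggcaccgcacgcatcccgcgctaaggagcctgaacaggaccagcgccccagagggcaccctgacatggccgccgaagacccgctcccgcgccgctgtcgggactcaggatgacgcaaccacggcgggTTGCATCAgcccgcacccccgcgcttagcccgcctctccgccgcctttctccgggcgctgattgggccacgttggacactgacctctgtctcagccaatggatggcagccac
Hspa5 (chr2:34771840-34772089, plus strand): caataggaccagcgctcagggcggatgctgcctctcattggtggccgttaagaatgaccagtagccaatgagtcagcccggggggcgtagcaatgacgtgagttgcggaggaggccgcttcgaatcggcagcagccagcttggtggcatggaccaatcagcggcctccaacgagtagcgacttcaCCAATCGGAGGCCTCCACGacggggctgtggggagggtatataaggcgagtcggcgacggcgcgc
Hsp90b1 (chr10:86705445-86705694, minus strand): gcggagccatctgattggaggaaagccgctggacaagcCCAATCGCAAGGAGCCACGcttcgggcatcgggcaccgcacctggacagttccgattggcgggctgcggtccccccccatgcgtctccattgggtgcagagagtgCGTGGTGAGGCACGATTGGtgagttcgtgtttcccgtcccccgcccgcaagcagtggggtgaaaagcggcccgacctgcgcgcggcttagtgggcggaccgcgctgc
Creld2 (chr15:88819396-88819645, plus strand): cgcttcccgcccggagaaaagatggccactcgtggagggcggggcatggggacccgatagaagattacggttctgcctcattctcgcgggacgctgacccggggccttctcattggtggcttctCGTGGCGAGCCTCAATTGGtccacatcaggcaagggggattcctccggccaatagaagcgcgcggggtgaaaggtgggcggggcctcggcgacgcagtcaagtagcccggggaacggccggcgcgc

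All 20 tested members had a promoter in the RefSeq table. The C/EBP-ATF letters lay in that of Asns, Atf3 and Herpud1, that is 3 of 20, beside 3.45% of all 32851 promoters of this length. For both elements a list gene counted if any of its promoters matched, while the share of all promoters counts each promoter. These shares are therefore in unlike units. Asns and Herpud1 had a called departure on day 4 and Atf3 did not (0.67, with 1.07 and 0.03 on day 4). The stress element lay in 5 of 20 (Hspa5, Hsp90b1, Calr, Pdia6 and Creld2), beside 0.113% of all promoters, and 0 of these 5 had a called departure. The Herpud1 window ends in CCAAT and CCAC at the spacing of this element, and the next base lies outside it. The search therefore cannot decide whether Herpud1, with its called departure, holds the stress element too. Other forms of the element were not searched. In Asns the match starts 23 bases before the transcription start. Trib3, Ddit3 and Atf4 do not hold either set of letters in this window. A match is a description of the letters and not a measured site.

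Several genes outside that list also departed on day 4 or had the day 4 class. Acta2, smooth muscle actin, was at 0.61 and 0.77 on day 2, 1.45 and 1.64 on day 4, and 0.08 and -0.07 on day 6. Its probe can also take up RNA of the other actin genes. Zfp36, which destabilises mRNA (1.16 on day 4), and Agrn, agrin (1.15 on day 4, with a late course on its other probe), were day 4 genes as well. Lefty1, a Nodal antagonist, read -1.07 and -0.56, 0.50 and 0.97, and -0.63 and -0.80. Both day 4 arrays were above the other 4, and the departure was called (adjusted p = 0.00594 by limma). Among genes that dipped on day 4, Spry2, a feedback inhibitor of FGF and ERK signalling, read 0.35 and -1.01, -1.16 and -3.17, and -0.13 and -1.41. The departure was -1.62 ± 0.19 (adjusted p = 0.00444 by limma), though its arrays of a day differed by over 1. Of the 12 tested members of the FGF and ERK list, Spry2, Spry4 (-0.96) and the phosphatase Dusp4 (-1.12) had a called departure below and none above. Among all probes the shares were 0.306% below and 0.576% above. Dusp4 read 1.63 and 1.35, 0.07 and 0.04, and 0.85 and 0.84, so that each day stood apart from the others. Lef1, the nuclear partner of beta-catenin, read 1.98 and 1.60, 0.21 and 0.06, and 1.48 and 1.08. The transferrin receptor Tfrc dipped on the probe named here (-0.36, -2.54 and -2.13), while its other probe read -0.21, -0.14 and -0.01. Ak4, an adenylate kinase, had a mean of -1.31 on day 4.

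The Id genes, direct targets of BMP signalling, did not move alike. Id1 rose (0.19, 0.58 and 1.27; slope 0.27 ± 0.05 per day), Id2 rose from -0.69 to 1.82, and Id3 was high on days 2 and 6 and low on day 4 (0.85 and 1.08, 0.02 and 0.34, 1.79 and 1.48; departure -1.12). Of the 16 tested members of the Nodal, BMP and TGF-beta list, 8 were higher and 4 lower than untreated cells on day 6 (background 16.5% and 17.8%), and Tdgf1 and Gdf3 were among the lower. Bmp7 was higher on day 6 (0.97), and Bambi, a decoy receptor, was higher on days 4 and 6 (0.73 and 1.10). Bmp4, the main BMP ligand of these cells, had means of -1.26, -1.40 and -0.37 from 5 values.

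Of 17 tested genes of glycolysis and hypoxia, 0 were higher and 7 lower on day 2 (background 5.06% and 5.43%), and 7 were higher and 3 lower on day 6 (background 16.5% and 17.8%), with medians of -0.25 and 0.33. The count of lower genes on day 2 was 4 without either array of that day. A rising trend was called for 4 (Slc2a3, P4ha1, Bnip3 and Pfkl) and a falling one for none, and without the day 2 Cy5 array or without the day 6 Cy3 array for none. Vegfa, the endothelial growth factor induced by hypoxia, read -0.79 and -1.27, 1.35 and 0.37, and 0.82 and 0.49, and its slope was not called (adjusted p = 0.0529 by limma). Pfkp, a phosphofructokinase, stayed low, with -1.77, -2.17 and -1.80. Of 13 cholesterol synthesis genes, 5 were higher on day 2, 10 on day 4 and 8 on day 6 (background 5.06%, 16.9% and 16.5%), and none was lower. The count was 1 on day 2 without either array of that day, and 3 on day 4 without the day 4 Cy5 array, and 2 on day 6 without the day 6 Cy3 array. The sterol enzyme Cyp51 had means of 1.15, 0.74 and 0.57, and Dhcr7, which makes cholesterol from its last precursor, 0.25, 0.82 and 1.05. Of 11 heat shock and oxidative stress genes, 7 were lower and none higher on day 6, and 4 had a falling trend (background 2%), among them Mt1 (slope -0.56 ± 0.07 per day), Hmox1 and Gclm, which limits glutathione synthesis (0.42, -0.89 and -1.19).

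Markers of other cell types were read on day 6 beside 16.5% of all probes higher and 17.8% lower, and on day 4 beside 16.9% and 15.5%. In the bulk RNA, more cells of a type and more RNA per cell cannot be told apart. Of 14 matrix and mesenchyme genes, 7 were higher and 1 lower on day 6, and 6 had a rising trend (background 1.8%) and none a falling one: Loxl2, Anxa2, S100a6, vimentin (Vim; -0.02 and -0.33, 0.35 and 0.21, 1.27 and 1.25), Anxa1 and Lgals1, a galectin (mean of 0.99 on day 6). The count was 0 without the day 2 Cy5 array. Col1a2, a collagen chain, had means of 0.21, 1.66 and 2.39 from 5 values. Other matrix genes with 5 values were mixed on day 6: Col1a1 was called higher (0.68), Postn was called lower (-0.45) and Col3a1 was not called (-0.12). Of 13 extraembryonic endoderm genes, 5 were higher and 2 lower on day 6. Sparc was the highest at 1.66, and the transcription factors Sox7 (0.24) and Foxa2 (0.02) and the serum protein Afp (-0.09) were not called on day 6. Among endoderm genes with 5 values, Gata4 (0.57) and Col4a1 (1.05) were called higher on day 6. Hnf4a (-0.16) and Lamc1 (-0.08), also from 5 values, were not called. Of 6 tested trophectoderm genes, Krt8 (1.07, 1.42 and 1.60) and Krt19 were higher on day 6, while Tfap2c (-0.93, -2.44 and -1.39) was lower on each day and Rhox9 on day 6 (-0.67). Cdx2, the defining transcription factor, had a mean of 0.58 on day 6 from 5 values. Of 10 neural genes, 2 were higher and 4 lower on day 6. Nes, the progenitor filament nestin, read 1.15 and 1.17, 0.93 and 1.16, and 0.62 and 0.34, and the POU factor Pou3f2 read 0.50 and 0.39 on day 6. Pax6 (-1.21), Tubb3 (-0.81) and Gap43 (-0.49) were lower on day 6, and the neuronal filament gene Ina fell from 0.06 to -2.15. Of 14 muscle and heart genes, 6 were higher and 1 lower on day 4, and 2 were higher and 1 lower on day 6. The 6 higher ones were the cytoskeletal genes Acta2, Myl9, Cnn1, Cnn2, Tpm1 and Tpm2. Tpm1, a tropomyosin, read 1.24 and 0.25, 2.99 and 1.93, and 2.67 and 1.77, and the calponin Cnn1 had means of 1.02, 1.22 and 0.20. The lower one was Tnnt2, cardiac troponin T, with 0.14 and -0.36, -0.96 and -0.67, and -0.82 and -1.04. The cardiac factor Nkx2-5 and the cardiac myosin light chains Myl2, Myl4 and Myl7 were between -0.23 and 0.15 on each day. Of 6 primitive streak and mesoderm genes, Lhx1 (0.70) and Foxf1 (0.78) were higher on day 6. Of 7 blood and endothelial genes, Flt1 was higher (0.41) and Pecam1, which stem cells also express, lower (-1.42). Fgf8, a growth factor of the primitive streak, had means of 0.24, 0.71 and 2.32 and Eomes, a T-box factor, 0.23, 0.33 and 1.10, each from 5 values.

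The counts on day 6 in the lists that follow stand beside 16.5% of all probes higher and 17.8% lower. Of 22 tested chromatin genes, 4 had a called falling trend (background 2%) and none a rising one: Dnmt3b, Dnmt3l, Dnmt3a (0.86, 0.25 and -0.08) and Jarid2, a partner of the Polycomb complex (-0.18, -1.07 and -1.23). Dnmt1, the maintenance enzyme, was at -0.14, -0.16 and -0.16 and was not called on any day. Of 17 imprinted genes, 7 were higher and 2 lower on day 6, and Phlda2, a growth-limiting gene of the placenta, fell from -0.13 and 0.08 to -2.13 and -1.29 and then -1.90 and -2.14. H19, a maternally expressed noncoding RNA, had means of -0.34, -0.03 and 1.88 from 5 values. Of 8 germ cell and 2-cell genes, 6 were lower and none higher on day 6, with Sycp3, a protein of the meiotic axis, falling from -0.16 to -1.74. Of 27 cell cycle genes, 5 were higher and 5 lower on day 6, near the share among all probes. Of the 4 with a called trend, Mycn, a Myc family gene, dropped between day 2 (-0.15 and 0.04) and day 4 (-2.27 and -1.75), Myc fell from 0.32 to -0.89, cyclin Ccnd1 fell from -0.40 to -1.52, and Cdc45, a replication factor, rose from -0.18 to 1.29. Of 17 p53 and growth arrest genes, 4 were higher and 7 lower on day 6. Cdkn1a (p21), the main arrest gene of p53, was at -0.23, -0.20 and 0.18 and not called, while Pmaip1 (Noxa) went from 1.21 and 1.16 to -0.27 and -0.89. Of 9 LIF and STAT3 genes, Socs3, the feedback inhibitor of this pathway, was lower on each day (-1.50, -1.15 and -0.97). Of 8 retinoid genes, 5 were higher and 2 lower on day 6. Among the higher, Rarb read -0.03 and 1.74, 0.44 and 2.84, and 1.21 and 1.92. Crabp1, also higher, was at -0.46 and -0.54, -0.63 and -0.53, and 1.17 and 1.23. Rarg read -0.34 and -0.55, -1.18 and -0.80, and -1.35 and -1.55 on the listed probe. Its other probes had day 6 means of -0.28 and -0.05. Of 12 interferon response genes, 4 were higher and 3 lower on day 6, with the proteasome subunit Psmb8 rising from 0.54 to 1.83 and Ifitm1 at -2.27, -2.74 and -1.73.

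Whether a slope with DMSO differed from that with RA or HMBA was tested over 18 arrays and 10763 probes with complete values. It differed from RA for 66 probes (0.613%), 35 higher (0.325%) and 31 lower (0.288%) with DMSO, and from HMBA for 63 (0.585%), 35 higher (0.325%) and 28 lower (0.26%). At an unadjusted p under 0.05 there were 795 (7.39%) and 969 (9%). Without the dye term these counts were 3 and 6, and under quantile normalization the RA difference had 63 higher and 26 lower. Without 1 array the RA count went down to 13 (day 2 Cy3), 21 (day 2 Cy5), 24 (day 6 Cy3) and 25 (day 6 Cy5), and the HMBA count to 11, 16, 13 and 39. Rhox6, a homeobox gene of the placenta, stayed near its untreated level with DMSO (-0.18 and -0.52, -0.07 and -0.60, 0.18 and -0.64), while its means reached 4.73 with RA and 4.12 with HMBA on day 6. The slope was lower by 0.94 than with RA and by 1.09 than with HMBA (adjusted p = 0.00132 and 0.000601 by limma). The slope of Rhox9 was lower by 0.93 and 0.97, and with DMSO it read -0.15 and -0.45, -0.19 and -0.25, and -0.72 and -0.62. Its probe may share RNA with that of Rhox6. Lama1, a laminin chain made by parietal endoderm, had a slope lower than with RA (-0.80 ± 0.09), with day 6 means of -0.43 with DMSO, 3.60 with RA and -0.54 with HMBA. Cdkn1c (p57), an imprinted cell cycle inhibitor, was at -0.13 with DMSO on day 6 and at 3.53 with HMBA, a slope difference of -0.80 ± 0.10. The slope was higher with DMSO than with RA for Sprr2b (0.66), Sp5, a Wnt target (0.69), and the kinase Nuak1 (0.64). A higher slope was not always a higher level. Nuak1 was lower with DMSO on each day (0.19, 2.14 and 2.11) than with RA (3.59, 3.18 and 2.96). With RA, Sp5 had means of 1.44, 1.40 and 0.41, and Sprr2b 0.34, 0.38 and 0.14. It was higher than with HMBA for Gbp2b (0.95; 0.34 with DMSO and -0.61 with HMBA), Pim2 (0.71; both slopes below 0) and Igfbp3, a carrier of insulin-like growth factors (0.60; 0.25 and -0.35). Sp5 with DMSO read 0.46 and -0.27, 0.65 and -0.32, and 1.88 and 1.78. Pim2 went to -1.82 with HMBA on day 6 against 1.59 with DMSO. Over 8 alternative fits that kept the dye term, Sp5 and Gbp2b lost the call in 4, Sprr2b, Nuak1 and Igfbp3 in 3, and Pim2 in 1. The slopes of Pou5f1, Nanog and Sox2 were not called different from either inducer (smallest adjusted p = 0.797 by limma). The treatments share the untreated cells as a reference.

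**Figure D4:**
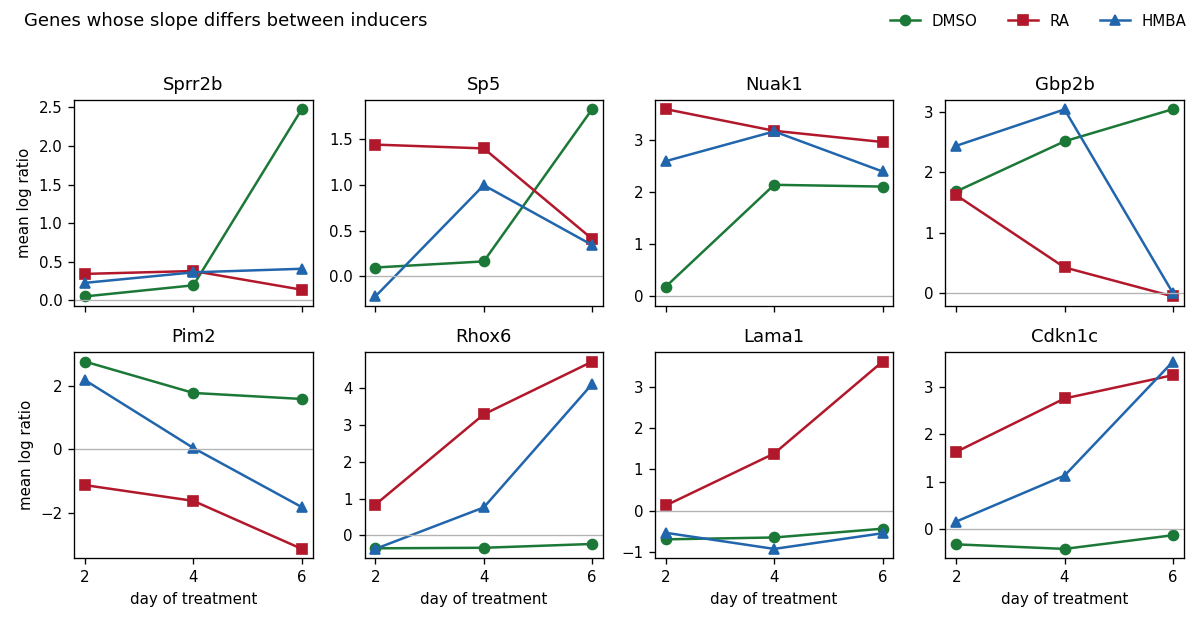
Mean log ratio of treated over untreated cells (vertical axis, scaled to each gene) on days 2, 4 and 6 (horizontal axis) for 8 genes whose slope was called different, with circles for DMSO, squares for RA and triangles for HMBA, each the mean of 2 arrays. Rhox6 stays between -0.35 and -0.23 with DMSO and rises to 4.73 with RA and 4.12 with HMBA, and Sprr2b reaches 2.48 with DMSO against 0.14 with RA on day 6.

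The genes of the time classes were then read in other cells, on another platform: E14 cells with Pou5f1 RNAi against the empty vector, where 26.4% of the 7983 genes on both arrays were higher and 27.2% lower (limma, adjusted p under 0.05 over 45037 probe sets, of which 31.6% were called, 16% higher and 15.6% lower). Of the 62 genes of the steady class that were low with DMSO and measured there, 50 were lower with Pou5f1 RNAi and 5 higher. Of the 19 that were steadily high, 16 were higher and 0 lower. Late genes leaned the same way, with 116 of 204 late losses lower and 93 of 179 late gains higher. The early gains did not: 8 of 13 were lower and 4 higher with Pou5f1 RNAi, and of the 17 reversing genes that ended high, 5 were higher and 4 lower. The 188 genes with a falling trend included 117 that were lower. These counts describe the overlap, with no test of it.

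**Figure D5:**
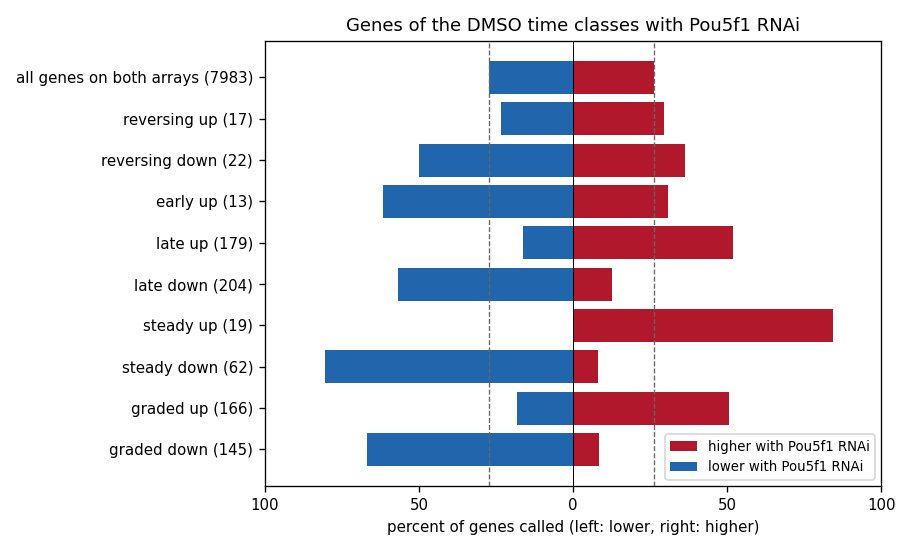
Percent of the genes of each DMSO time class and direction that were called lower (left) or higher (right) with Pou5f1 RNAi, for classes with 10 or more genes, whose number stands in brackets; dashed lines mark the shares among all 7983 genes on both arrays. Steady losses reach 80.6% lower and steady gains 84.2% higher, beside 27.2% and 26.4% among all genes.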

How the data were processed

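The authors deposited the two-colour values as log ratios, taken here as log2, an assumption since no label or header states the base; the direction is treated over untreated, per the labels' dyes. Arrays had medians of 0, and no further normalization was applied. The deposited values of the RNAi arrays are log2 expression from RMA, per the submitters' processing notes. A symbol was given to 16345 of 21106 two-colour probes (125 had several and 4636 none) and to 34958 of 45101 RNAi probe sets, 393 two-colour symbols being updated. limma 3.58.1 (R 4.3.3) fitted each probe with a value on all 6 DMSO arrays: a linear slope per day plus dye orientation, and separately a mean per day plus dye. The departure is day 4 minus the mean of days 2 and 6. Slope differences used all 18 two-colour arrays, and the RNAi contrast all 14 RNAi arrays. Tables and figures used Python 3.11.15, pandas 2.3.3 and matplotlib 3.10.9. The fits were tested on simulated data. They called 40% of slopes of 0.25 per day and 89% of slopes of 0.5. Of day 4 departures they called 32% of those of size 1 and 81% of those of size 2.

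Within treatment, arrays of the same dye orientation deviated together from the day means (r of 0.832 to 0.912 in 3 pairs), so dye orientation pairs the arrays and is the block in every fit. P-values measure the spread between these arrays, which may be technical, and the number of arrays limits the precision.

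Genes with 1 symbol were named by rule: the 10 largest called slopes and the 5 largest departures each way, up to 5 per class and direction, the 3 largest slope differences each way, up to 4 members of a list by trend p, and Pou5f1, Nanog and Sox2. Other list members named in the text were chosen after their values were seen. The members and lists were chosen with earlier results of these data known. A list member is measured by its first complete probe; members with a missing array come from a fit that allows missing values. Alternatives were other scaling, no dye term, missing values, other size limits, other sets of arrays and leaving out each array or day. One alternative, the 5 arrays other than day 4 Cy5 with the probes complete on them, was chosen after seeing the data.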

Additional observations from a re-analysis of the deposited data

Results flagged for a closer look

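The slope over days 2 to 6 with DMSO differed by a direct test (limma, 18 arrays) from that with RA for 66 probes and from that with HMBA for 63. Against RA the named differences in slope per day were 0.69 for Sp5, 0.66 for Sprr2b, 0.64 for Nuak1, -0.94 for Rhox6, -0.93 for Rhox9 and -0.80 for Lama1. Against HMBA they were 0.95 for Gbp2b, 0.71 for Pim2, 0.60 for Igfbp3, -1.09 for Rhox6, -0.97 for Rhox9 and -0.80 for Cdkn1c.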

How the results depend on the processing

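The calls depended on the dye term and on single arrays. All 422 trend probes kept their sign in every alternative except without day 2 (409) and without day 6 (419). Where unscaled arrays of days 2 and 6 were all kept, the slope was the same by construction and its sign could not change. With no dye term (no replicate block) the counts were 0 for the trend, 7, 237 and 418 for days 2, 4 and 6, 0 for the departure, 0 reversing, 3 day 4, 0 early, 239 late, 3 steady, 195 graded, and 3 and 6 for the slope differences from RA and HMBA. Scaling arrays to one spread gave 984 for the trend, 2207 on day 2, 5 day 4 and 55 early probes. Quantile normalization gave 791, 2224, 4 and 75, and 109 for the HMBA difference. Allowing missing values gave 995 for the trend, 1939 on day 2, 240 departures, 32 day 4 and 43 early probes, and 124 and 102 for the RA and HMBA differences. Fitting all 18 arrays gave 1333 for the trend and 214 departures. The 5 arrays gave 1562 for the trend, 2776 on day 2, 6550 on day 6, 344 departures and 68 day 4 probes. The trend count was 0 with arrays of a day averaged, 160 without day 2, 2223 without day 4, 1254 without day 6 and 963 as day 6 minus day 2. A size limit of 0.7 gave 74 day 4, 79 early, 1067 late, 184 steady and 766 graded probes, and 1.5 gave 2, 3, 150, 22 and 165. Slopes turned to 0.16 (Trh), 0.11 (Cyct), 0.0683 (Mycn) and 0.0070 (Myc) without day 2, and to -0.0374 (Crabp1) without day 6. Leaving out 1 array in turn gave 0 to 1009 trend calls, 218 to 2249 on day 2, 2333 to 4768 on day 4, 2483 to 5097 on day 6, 58 to 868 departures, 18 to 67 reversing, 11 to 189 day 4, 20 to 34 early, 469 to 707 late, 68 to 89 steady and 358 to 539 graded probes, 13 to 87 RA and 11 to 110 HMBA differences, and 12748 to 14764 RNAi calls. The replicate block gave 16023 RNAi calls against 14240; its numbers do not pair the samples (r of -0.246 to 0.437, over 0.1 in 5 of 13 pairs). The causes were not tested. Only 11117 of 21106 probes had complete values.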
